A study of Mus musculus with 6 samples.

Results

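The genes described here are 8 transcription factors of noradrenergic and sympathoadrenal identity, Phox2a, Hand1, Hand2, Gata2, Gata3, Isl1, Insm1 and Tfap2b. They were given by name, with earlier results of these data known, and all 8 were found among the 55536 genes of the deposited count files. The files hold mRNA sequencing counts for CAD cells, a catecholaminergic line of the mouse central nervous system that was transformed with simian virus 40 and comes from a male C57BL/6 x DBA/2 animal, used at fewer than 10 passages. The 3 undifferentiated libraries came from proliferating cells in medium with 8% fetal bovine serum. The 3 dexamethasone libraries came from cells given 100 µM of the synthetic glucocorticoid dexamethasone for 5 days, in medium with 1% serum. Steroid and serum therefore differed together, and their effects cannot be told apart. No day is given for the undifferentiated cells, so time in culture may have differed with them. A single line was used, and the labels do not say whether the samples of a group came from separate cultures, so p-values reflect only how far these samples vary, which may be technical variation.

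Sympathoadrenal cells arise from the neural crest and become sympathetic neurons or chromaffin cells of the adrenal medulla. A small set of transcription factors directs this fate and switches on the genes of noradrenaline synthesis. Phox2a is a homeodomain protein that binds the promoter of Dbh, which encodes the enzyme that makes noradrenaline. Hand1 and Hand2 are basic helix-loop-helix proteins that pair with E proteins. Gata2 and Gata3 are zinc finger proteins, Isl1 is a LIM-homeodomain protein, Insm1 is a zinc finger repressor of neuroendocrine cells and Tfap2b is an AP-2 protein. In sympathetic neurons and neuroblastoma these factors bind the regulatory regions of one another's genes.

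The RefSeq promoter table (GRCm38.p6) held 6 of the 8 members, without Hand1 and Insm1. The 250 bases before the start site are shown for the most abundant of them, Hand2, and for Phox2a, Gata2 and Tfap2b, whose levels differed most between the groups. Capitals mark matches on either strand to an E-box (CANNTG), a GATA motif (AGATAA), an AP-2 motif (GCCNNNGGC) or a homeodomain motif (TAATTA).
Hand2, chr8:57320733-57320982, plus strand: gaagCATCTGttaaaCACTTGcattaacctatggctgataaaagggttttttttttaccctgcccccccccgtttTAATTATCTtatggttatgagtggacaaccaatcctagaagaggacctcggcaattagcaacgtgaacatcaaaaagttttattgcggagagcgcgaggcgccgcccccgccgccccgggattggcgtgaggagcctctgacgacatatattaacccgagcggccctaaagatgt
Phox2a, chr7:101818063-101818312, plus strand: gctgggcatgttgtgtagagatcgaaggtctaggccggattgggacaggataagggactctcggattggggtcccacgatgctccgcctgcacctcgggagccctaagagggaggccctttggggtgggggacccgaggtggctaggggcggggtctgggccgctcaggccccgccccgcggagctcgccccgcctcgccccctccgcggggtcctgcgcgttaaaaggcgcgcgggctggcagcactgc
Gata2, downstream of its 2 start sites, chr6:88198414-88198663, plus strand: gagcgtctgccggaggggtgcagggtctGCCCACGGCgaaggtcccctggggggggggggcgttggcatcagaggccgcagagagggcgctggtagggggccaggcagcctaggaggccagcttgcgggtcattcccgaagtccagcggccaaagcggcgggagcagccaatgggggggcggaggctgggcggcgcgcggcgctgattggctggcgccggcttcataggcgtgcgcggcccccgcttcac
Tfap2b, chr1:19211804-19212053, plus strand: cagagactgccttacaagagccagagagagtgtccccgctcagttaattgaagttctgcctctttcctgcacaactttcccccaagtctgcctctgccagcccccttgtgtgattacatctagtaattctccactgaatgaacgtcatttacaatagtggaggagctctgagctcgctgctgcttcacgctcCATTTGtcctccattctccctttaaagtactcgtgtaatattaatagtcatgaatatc
Hand2 held 2 E-boxes, 1 homeodomain motif and 1 GATA motif, and the last 2 shared 3 bases. Tfap2b held 1 E-box and the downstream Gata2 start site 1 AP-2 motif. Phox2a and the upstream Gata2 start site, which is not shown, held none of the 4. Of the members not shown, Isl1 held 1 E-box and Gata3 3 AP-2 motifs. The windows of Tfap2b and Gata3 lie inside the counted genes, which begin further upstream, at 19208914 and 9890034. The bases before those outer starts were not searched. Over all 32851 promoters of the same length an E-box was found in 66.2%, an AP-2 motif in 13.7%, a GATA motif in 9.99% and a homeodomain motif in 4.84%. The full glucocorticoid response element, an inverted repeat of AGAACA with 3 bases between, found in 0.00913% of all promoters, was in none of the members' 7 promoter sequences, and AGAACA by itself (in 16.1% of all) was in that of Isl1 alone, where it overlapped the E-box. These matches describe letters in a window and do not show binding.

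Hand2 was by far the most abundant of the 8 genes, and Hand1 and Insm1 were barely detected. Levels between genes were compared as CPM (each library's reads scaled to the same total, with TMM factors) divided by kilobases of exon (RPKM), over libraries of 6411105 to 8757992 counted reads. In undifferentiated cells the level was 483 ± 12.5 RPKM for Hand2, 212 ± 8.85 for Phox2a, 66.7 ± 0.429 for Gata2, 24.5 ± 0.122 for Isl1, 12.3 ± 0.984 for Tfap2b and 0.950 ± 0.101 for Gata3 (SD, n = 3). In dexamethasone cells it was 391 ± 10.4 RPKM for Hand2, 118 ± 9.96 for Phox2a, 30.0 ± 2.18 for Gata2, 17.6 ± 0.389 for Isl1, 4.19 ± 0.364 for Tfap2b and 1.09 ± 0.0996 for Gata3 (SD, n = 3). The order was the same in both groups for these 6 genes, and each gene's lowest library lay above the next gene's highest. Hand1 and Insm1 overlapped each other in both groups. Among the 12664 genes with enough reads to test, Hand2 stood at the 99.5th percentile of length-scaled level in undifferentiated cells and Tfap2b at the 64.8th.

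**Figure D1:**
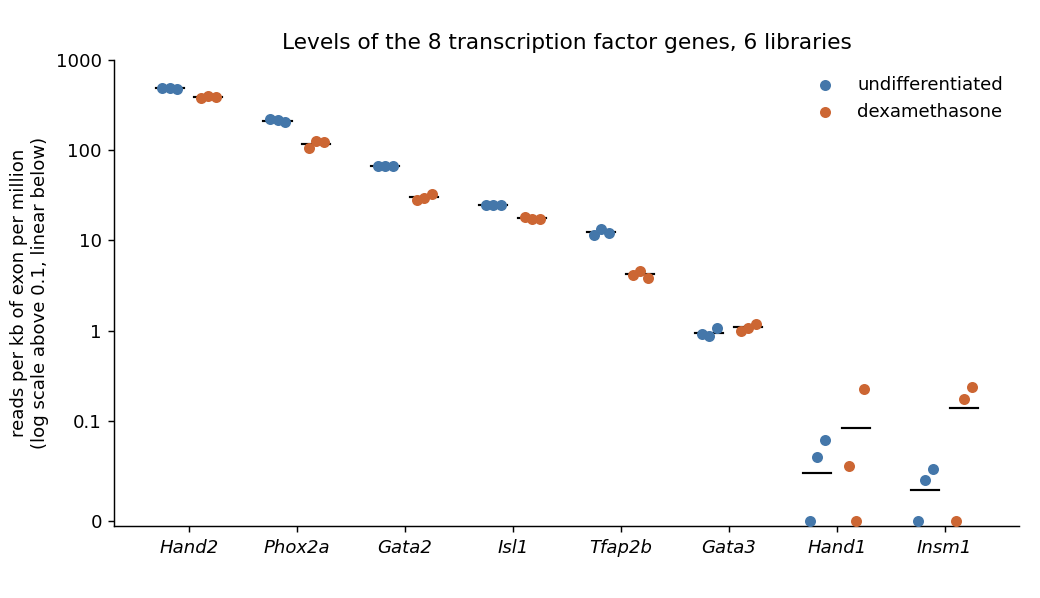
Length-scaled level (RPKM, logarithmic above 0.1 and linear below) of each of the 8 genes; each point is 1 library and the bars are means of 3 libraries. Hand2 lies highest in all 6 libraries, at 380.02 to 493 RPKM, and Hand1 and Insm1 lie below 0.25 RPKM in every library.

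Most of the testable factors were lower in dexamethasone-treated cells. Of the 6 members with enough reads to test, 5 fell and Gata3 was not called, in the quasi-likelihood test of edgeR (Benjamini-Hochberg adjusted p under 0.05, adjusted over all 12664 tested genes). No member was called higher (0 by edgeR, by DESeq2 and by limma, and 0 at an unadjusted p under 0.05). Of all tested genes 38.6% were called lower and 40.3% higher. The median log2 fold change of the 6 members was -0.66, against 0.02 for all tested genes, whose quartiles were -0.55 and 0.69. Scaling by library totals alone moved the median of all genes to 0.14, and the same 5 members were called lower with it. In bulk RNA fewer expressing cells and less RNA per cell cannot be told apart.

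Tfap2b, the AP-2 factor (ENSMUSG00000025927, chromosome 1, 19208914 to 19238576 in GRCm38, plus strand, 8 merged exon blocks), had the largest change of the 6 tested members. It was at 71.8, 84.2 and 77.4 CPM in undifferentiated replicates 1 to 3 and 26.5, 28.9 and 24.3 CPM in dexamethasone replicates 1 to 3. The groups did not overlap; every undifferentiated library lay far above every dexamethasone library. Tfap2b fell 2.92-fold (log2 fold change -1.54 ± 0.082 SE, edgeR adjusted p = 8.17e-16). Of all tested genes 5.39% had a lower log2 fold change, while 38.9% had every dexamethasone library below every undifferentiated library and 41.0% above. In percentile of level Tfap2b went from 64.8 to 34.8.

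Gata2, the zinc finger factor (ENSMUSG00000015053, chromosome 6, 88193891 to 88207032, plus strand, 7 merged exon blocks), is also a factor of blood progenitors. Its level was 358, 360.2 and 362 CPM in undifferentiated libraries and 152, 159 and 175 CPM in dexamethasone libraries. The undifferentiated libraries were nearly equal, and all dexamethasone libraries lay far below them. Gata2 fell 2.23-fold (log2 fold change -1.16 ± 0.054 SE, edgeR adjusted p = 4.81e-17). RefSeq lists 2 start sites for it, and gene counts do not show which was used.

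Phox2a, the homeodomain factor (ENSMUSG00000007946, chromosome 7, 101818313 to 101822726, plus strand, 3 merged exon blocks), was at 449.6, 434 and 414 CPM in undifferentiated libraries. It was at 217, 255 and 249 CPM in dexamethasone libraries, again without overlap. Phox2a fell 1.80-fold (log2 fold change -0.85 ± 0.056 SE, edgeR adjusted p = 1.29e-13), and 15.8% of tested genes had a lower log2 fold change. It stayed among the most abundant genes, at percentile 98.3 and 97.5 of level.

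Isl1, the LIM-homeodomain factor that sympathetic neurons share with sensory and motor neurons (ENSMUSG00000042258, chromosome 13, 116298281 to 116309689, minus strand, 7 merged exon blocks), changed less. Its level was 97.2, 96.6 and 97.6 CPM in undifferentiated libraries and 71.5, 68.8 and 68.9 CPM in dexamethasone libraries. Within each group the libraries were close, so the gap between the groups was well resolved. Isl1 fell 1.39-fold (log2 fold change -0.48 ± 0.060 SE, edgeR adjusted p = 4.43e-08), and -0.35 with library totals alone.

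Hand2, the basic helix-loop-helix factor (ENSMUSG00000038193, chromosome 8, 57320983 to 57324633, plus strand, 2 exons), had the smallest change among the called members. It was at 1144, 1159 and 1102 CPM in undifferentiated libraries and 893, 942 and 921 CPM in dexamethasone libraries. The groups did not overlap. Hand2 fell 1.24-fold (log2 fold change -0.30 ± 0.046 SE, edgeR adjusted p = 1.12e-06), and 35.2% of tested genes had a lower log2 fold change. With library totals alone the log2 fold change was -0.18 (edgeR adjusted p = 8.86e-04), so the size of this fall, more than that of the others, rests on the scaling.

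Gata3, the paralog of Gata2 (ENSMUSG00000015619, chromosome 2, 9857078 to 9890034, minus strand, 10 merged exon blocks), was at 3.67, 3.44 and 4.22 CPM in undifferentiated libraries. It was at 3.99, 4.25 and 4.77 CPM in dexamethasone libraries, and the groups overlapped. The log2 fold change was 0.20 ± 0.223 SE (edgeR adjusted p = 0.424), from 79 and 107 reads over the 3 libraries of each group, and its adjusted p was 0.186 to 0.656 over all alternatives. The log2 ratio of Gata3 to Gata2, per kilobase of exon, was -6.11 ± 0.145 in undifferentiated and -4.77 ± 0.0283 in dexamethasone cells (SD, n = 3). It was higher in all 3 dexamethasone libraries, by 1.35 (exact two-sided permutation p = 0.1, the smallest p that 3 libraries against 3 can give, so the ratio cannot pass 0.05). Most of this difference is the fall of Gata2 already given (log2 fold change -1.16), and the Gata3 change of 0.20 was not called.

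Hand1, the paralog of Hand2 (ENSMUSG00000037335, chromosome 11, 57828705 to 57832818, minus strand), had 0, 1 and 1 reads in undifferentiated and 1, 0 and 3 reads in dexamethasone libraries. The ratio of scaled reads was 1.69 with an exact 95% binomial interval of 0.242 to 18.7, which covers counting error only. Insm1 (ENSMUSG00000068154, chromosome 2, 146221921 to 146225020, plus strand, 1 exon) had 0, 1 and 1 reads in undifferentiated and 0, 5 and 5 reads in dexamethasone libraries, a ratio of 4.23 (0.901 to 39.7). Neither had enough reads to test, 3 reads in a library being worth 0.343 to 0.468 CPM, and a change of either gene was not detectable at this depth.

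**Figure D2:**
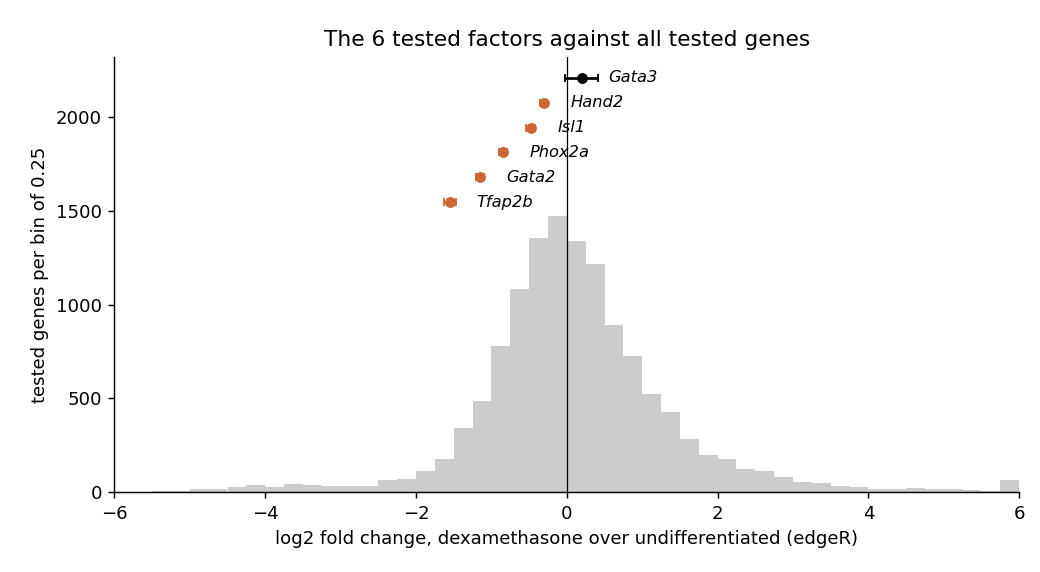
Log2 fold change of the 6 tested factors (points, with SE) above a histogram of all 12664 tested genes; the outermost bins also hold genes beyond the axis. The 5 called factors lie between -1.54 and -0.30, within the range of other genes, and Gata3 lies at 0.20 with an SE that reaches 0.

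The make-up of the set shifted toward Hand2, the called factor with the smallest fold change. Of the summed RPKM of the 8 genes Hand2 held 60.0%, 60.7% and 60.3% in undifferentiated libraries and 70.6%, 69.2% and 68.8% in dexamethasone libraries. The share of Phox2a was 27.3%, 26.3% and 26.1% in undifferentiated and 19.8%, 21.7% and 21.5% in dexamethasone libraries. That of Gata2 went from 8.34% ± 0.252 to 5.34% ± 0.312, and that of Tfap2b from 1.54% ± 0.124 to 0.745% ± 0.0630 (SD, n = 3). In each of these 4 shares the groups did not overlap. The shares are computed from the levels given above and depend on one another, so they are not separate results. Isl1 held 3.07% ± 0.0885 and 3.14% ± 0.191 (SD, n = 3), with overlapping groups.

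**Figure D3:**
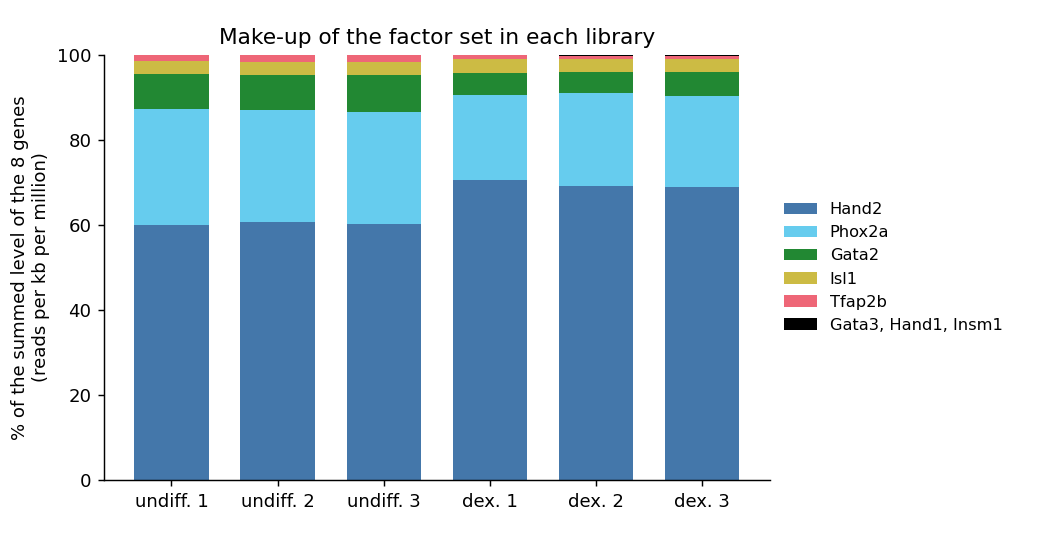
Share of each gene in the summed length-scaled level (RPKM) of the 8 genes, 1 bar per library; Gata3, Hand1 and Insm1 are summed in black. The Hand2 share is 60.0% to 60.7% in undifferentiated and 68.8% to 70.6% in dexamethasone libraries.

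Neighbouring genes were compared with the members at each locus, taking 25 annotated genes that overlap a member or start within 50 kb of its body. Only 9 of them had enough reads to test, of which 5 fell and 2 rose. Of all tested genes 38.6% were called lower and 40.3% higher, so such small counts say little about the loci. Hand2os1, a noncoding RNA read from the opposite strand across Hand2, was at 142 ± 0.650 CPM in undifferentiated and 131 ± 6.63 CPM in dexamethasone cells (SD, n = 3). It missed the threshold at a log2 fold change of -0.11 (edgeR adjusted p = 0.0727). Leaving out dexamethasone replicate 1 gave -0.15 and a call (edgeR adjusted p = 0.0154), and the alternatives spanned adjusted p values of 0.0154 to 0.769. The 2 noncoding genes downstream of Hand2 fell, 5033428I22Rik by 2.24-fold and Gm34030 by 1.51-fold. At the Phox2a locus Inppl1, whose end overlaps that of Phox2a on the other strand, fell 1.24-fold and Anapc15, a subunit of the mitotic anaphase-promoting complex, 4.61-fold, while Gm10602, annotated as an antisense gene and read from the strand of Phox2a, rose 1.89-fold. Beside Hand1, Sap30l fell 1.61-fold and 2010001A14Rik rose 2.38-fold. The authors' counting used the strand of the read, so genes on opposite strands were counted apart.

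Many relatives of the members were silent. Of the 12 relatives reported here, which are not all of them, 5 had no read in any library, namely Gata1, Gata5, Gata6, Tfap2c and Insm2, and 4 had enough reads to test. Gata4, a factor of heart and gut, was at 24.3 ± 1.86 RPKM in undifferentiated and 18.2 ± 1.79 RPKM in dexamethasone cells (SD, n = 3), below Gata2 and above Gata3 in both groups, and fell 1.33-fold. Tfap2a, the AP-2 factor of the early neural crest, was at 4.29 ± 0.260 and 2.54 ± 0.265 RPKM (SD, n = 3) and fell with a log2 fold change of -0.76, beside -1.54 for Tfap2b. Twist1, a helix-loop-helix relative of the Hand factors, fell by 0.49 on the log2 scale, and Isl2 missed the threshold (edgeR adjusted p = 0.0731; called higher with library totals alone, 0.016).

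On a list of other factors of noradrenergic cells, which is not complete, 8 of 15 tested genes fell and 3 rose, with a median log2 fold change of -0.21. With library totals alone 6 fell and 5 rose (median -0.09). The counts of this list and of those below stand beside 38.6% of all tested genes called lower and 40.3% called higher. The largest falls were those of Mycn, the neuroblastoma oncogene, from 163.5 ± 9.72 to 29.9 ± 1.17 CPM, of Tbx2, a T-box repressor, from 158 ± 4.18 to 30.1 ± 4.33 CPM, and of Tlx2, a homeobox factor of enteric neurons, from 125.5 ± 8.10 to 34.0 ± 6.79 CPM (SD, n = 3; log2 fold changes -2.46, -2.39 and -1.90). Meis3 rose 1.77-fold, Satb1 1.22-fold and Eya1 by 0.32 on the log2 scale.

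Transcripts of all 4 Id genes, whose products inhibit the partners of the Hand factors, were lower, and those of the 3 E protein genes differed among themselves. Of the 7 together 6 fell, with a median log2 fold change of -1.49. Id proteins lack a DNA-binding region and hold E proteins in inactive pairs. Id3 was at 86.6, 97.5 and 88.1 CPM in undifferentiated and 1.77, 4.25 and 3.43 CPM in dexamethasone libraries, and Id2 at 96.8, 108 and 105 CPM and 5.54, 5.12 and 6.11 CPM. Id1 fell 2.82-fold and Id4 3.29-fold. Of the E protein genes Tcf3 fell 1.77-fold and Tcf12 1.18-fold (not called with library totals alone, edgeR adjusted p = 0.0619), while Tcf4 had a log2 fold change of 0.02 (edgeR adjusted p = 0.806) and was called higher with library totals alone (edgeR adjusted p = 0.0166).

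Cofactors of the GATA, LIM and AP-2 factors moved both ways. Of 6 tested GATA cofactors 4 rose and 1 fell (median 0.62). The one that fell was Zfpm1, also called FOG1, which went from 147 ± 4.89 to 72.9 ± 4.62 CPM, while its paralog Zfpm2 went from 1.18 ± 0.209 to 2.48 ± 0.154 CPM and Tal1 from 24.1 ± 1.26 to 36.2 ± 2.69 CPM (SD, n = 3). Among the GATA cofactors that rose, Cbfa2t3 was near the threshold (edgeR adjusted p = 0.0217, and 0.0748 with DESeq2). Of 9 tested LIM cofactors 4 fell and 2 rose (median -0.20). That balance turned with library totals alone, when 1 fell and 3 rose (median -0.07). The rise of Lmo3 was not called with DESeq2 (adjusted p = 0.104), nor the fall of Lmo4 without a filter (edgeR adjusted p = 0.0707). Lmo1, a neuroblastoma risk gene in humans, fell 1.39-fold and Lmo2 rose 1.83-fold, and Ldb1, the common partner of LIM proteins, missed the threshold (edgeR adjusted p = 0.163; called higher with library totals alone, 0.00148). Of 4 tested AP-2 cofactors Cited2 rose 1.45-fold and Kctd1 1.64-fold, while Cited1 was 13.1-fold lower, at 13.8 ± 0.503 CPM in undifferentiated and 1.04 ± 0.173 CPM in dexamethasone cells (SD, n = 3). Of 8 tested corepressor genes that work with Insm1 elsewhere, a list that is not complete, 5 fell and 2 rose (median -0.50). The histone deacetylase genes Hdac1 and Hdac2 fell 1.87-fold and 1.73-fold, and Rcor3 rose 1.24-fold (edgeR adjusted p = 0.0119; 0.0582 with DESeq2). The other riser, Rcor1, was near the threshold (edgeR adjusted p = 0.0469) and lost its call in 8 of 13 alternatives.

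**Figure D4:**
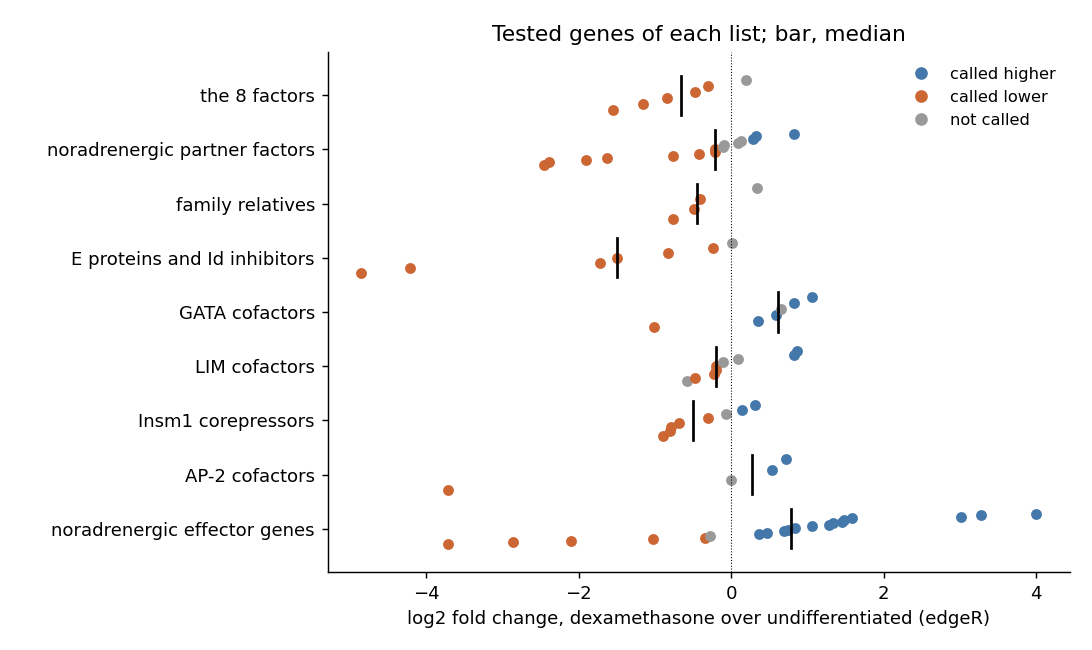
Log2 fold change of every tested gene of the 8 factors and of 8 related lists; each point is a gene, coloured by its edgeR call, and the bar is the list's median. The medians run from -1.49 for E proteins and Id inhibitors to 0.79 for noradrenergic effector genes.

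The effector genes of noradrenergic cells did not follow the factors as a group. Of 20 tested effector genes 14 rose and 5 fell, with a median log2 fold change of 0.79. Dbh, the gene bound by Phox2a, was at 167, 161 and 166 CPM in undifferentiated and 12.2, 12.9 and 12.4 CPM in dexamethasone libraries, a log2 fold change of -3.72 beside -0.85 for Phox2a. Ddc and Gfra2 also fell, with log2 fold changes of -2.86 and -2.10, but from low levels. Ddc went from 3.61 ± 0.187 to 0.466 ± 0.185 CPM and Gfra2 from 2.49 ± 0.372 to 0.564 ± 0.109 CPM (SD, n = 3). Th, Slc18a1 and Gch1 rose by 1.06, 1.33 and 1.49 on the same scale, and the granin genes Chgb and Scg2 by 3.28 and 3.02. The noradrenaline transporter gene Slc6a2 had no read in any library and the vesicular transporter gene Slc18a2 3 and 4 reads in the groups.

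The label of a catecholaminergic line was set against markers of other cells. Of 11 midbrain dopaminergic markers 8 had no read in any library, among them Lmx1a, Lmx1b, En1, Foxa2 and Slc6a3, and the summed level of the list was 12.9 to 15.9 CPM in undifferentiated and 17.7 to 18.5 CPM in dexamethasone libraries. Foxa1 was the only marker of the list called (1.33-fold higher, edgeR adjusted p = 0.0143, and 0.053 with DESeq2). Nr4a2, the other one tested, was at 4.90 ± 0.823 CPM in undifferentiated and 5.86 ± 0.712 CPM in dexamethasone cells (SD, n = 3). It was not called (log2 fold change 0.29, edgeR adjusted p = 0.201). The glial and neural crest list summed to 6.36 to 8.41 CPM and 22.5 to 24.2 CPM, of which Erbb3 took 4.59 ± 0.684 and 21.5 ± 0.692 CPM (SD, n = 3), while Sox10 and Foxd3 had no read. Of 12 mesenchymal markers 10 were tested, 5 rose, led by Fn1, Fosl2 and Prrx1, and 2 fell, Vim and Cd44. That list summed to 3739 to 3859 CPM in undifferentiated and 3015 to 3188 CPM in dexamethasone libraries. Most of the undifferentiated sum was Vim, which went from 3144 ± 76.9 to 1204 ± 39.0 CPM (SD, n = 3). Fn1 went the other way, from 342 ± 7.21 to 1376 ± 46.7 CPM (SD, n = 3). The part of the mesenchymal list in the fall of the members was not tested. Col1a1 was at 2.00 ± 0.544 and 1.27 ± 0.697 CPM (SD, n = 3) and Fosl1 at 0 reads.

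Tissues that share single members were looked at in the same way. Of 5 cardiac markers, a tissue of Hand1, Hand2 and Gata4, only Nkx2-5 was tested, and it fell from 55.2 ± 1.18 to 27.9 ± 5.87 CPM (SD, n = 3), while Tbx5 and Myh6 had no read. Of 7 pancreatic endocrine markers, a tissue of Isl1 and Insm1, 6 had no read and Pax6 fell 1.89-fold. Of 6 blood markers, a tissue of Gata2, 4 had no read and Itga2b rose from 0.379 ± 0.206 to 4.91 ± 0.601 CPM (SD, n = 3). Of 7 sensory neuron markers 4 were tested. Prrxl1 rose 5.46-fold and Runx3 fell 5.36-fold, while Pou4f1, a partner of Isl1 in sensory neurons, had a log2 fold change of -0.18 without a call (edgeR adjusted p = 0.105). Of 4 serotonergic markers Fev rose 2.69-fold and Tph2 was not called (log2 fold change -0.56, edgeR adjusted p = 0.147). Tph1 and Slc6a4 were not tested. Tph1 had 8, 16 and 6 reads in undifferentiated libraries and none in dexamethasone libraries. Slc6a4 went the other way, with 1, 0 and 0 reads in undifferentiated and 4, 8 and 7 reads in dexamethasone libraries. Of 6 cholinergic and motor neuron markers only Lhx4 was tested, and it rose 2.84-fold, from 2.42 ± 0.602 to 6.79 ± 0.878 CPM (SD, n = 3). Slc18a3 and Slc5a7 had no read. Chat had 3 reads in undifferentiated and 8 in dexamethasone libraries, Lhx3 5 and 6, and Mnx1 0 and 1.

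For each tested member the 3 protein-coding genes with the most similar profile over the 6 libraries were found among 9327 genes with a mean of at least 10 CPM, by the root mean square distance of log2 CPM after centring each gene. Phox2a was nearest to Taf10, Uqcrfs1 and Atp5d (distances 0.018, 0.029 and 0.035), and Hand2 to Ints4, Alkbh5 and Rbm45 (0.015, 0.017 and 0.018). Gata2 was nearest to Snrpc, Prpf19 and Rrs1 (0.020, 0.022 and 0.029), and Isl1 to Taf3, Ppp4r1 and Ash2l (0.013, 0.018 and 0.021). Tfap2b was nearest to Brca2, Cntrl and Acyp2 (0.049, 0.062 and 0.064), and Gata3 to Phkg2, Rptor and Stxbp3 (0.035, 0.039 and 0.043). No list held another member, and a profile over 6 libraries in 2 groups is mostly the size of the group difference.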

How the data were processed

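The members were given by name, and members and gene lists were chosen with earlier results of these data known. Results of some genes of the partner, relative and corepressor lists are not reported here; they were left out after their values had been seen, and without them the counts and medians of these lists lean further toward lower genes.

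The libraries were made from selected mRNA and sequenced in 75-base reads, per the labels' protocols. The submitters' processing notes name Trim Galore 0.6.4, HISAT2 2.2.0, Subread 1.6.4, DESeq2 and GRCm38.p6. The deposited values are raw counts per gene, made by the authors with featureCounts 1.6.4 on Ensembl 96 exons at strand setting 1, per the file headers; reads aligned to several places were not counted.

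All 55536 identifiers had a name in GENCODE M21. The filter of edgeR (filterByExpr, minimum count 10, minimum total 15) kept 12664 genes with 99.8% of reads. These were tested with edgeR 4.0.16 in R 4.3.3, with TMM factors, group as the only term and Benjamini-Hochberg adjustment over all of them. The SE is the size of the log2 fold change over the square root of F. CPM and RPKM use TMM-scaled totals. On simulated counts of 12664 genes, of which 200 were changed, the test recovered 52% of those changed 1.25-fold, 84% at 1.5-fold, 92% at 2-fold and 98% at 4-fold, and 7.91% of its 177 calls were false. Far fewer genes were changed there than the 78.9% of tested genes called in these data, so these rates need not carry over. Within groups, libraries varied more than counting alone gives (chi-square per degree of freedom between 1.65 and 3.19), so none was counted as a duplicate.

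Named genes were the members, their neighbours and nearest profiles, the enzyme and transporter genes, and up to 3 called genes per list and direction that reach 1 CPM in a group, taken by adjusted p; other genes were chosen after their values were seen. Alternatives were RLE factors or library totals for scaling, 1 CPM in 3 libraries or nothing as the filter, limma 3.58.1 voom, DESeq2 1.42.0, each library left out, and the replicate number as a block.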

Additional observations from a re-analysis of the deposited data

How the results depend on the processing

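Over the 13 alternatives 5 members stayed called lower and 0 were called higher in every one. The log2 fold change ran from -1.61 to -1.42 for Tfap2b, from -1.21 to -1.03 for Gata2, from -0.89 to -0.72 for Phox2a, from -0.49 to -0.35 for Isl1 and from -0.33 to -0.18 for Hand2, and for Gata3, which was called in none, from 0.13 to 0.32. With the replicate block Hand2 was at -0.30 and Tfap2b at -1.55, the counts over all genes were 5017 higher and 4803 lower against 5106 and 4891, and no member's call changed. Same-numbered libraries did not deviate together (correlations of deviations from the group means -0.11, 0.04 and -0.08), so the numbers were not taken as pairs. Over all alternatives 4748 to 5802 genes were called higher and 4207 to 4982 lower. The Gata3 to Gata2 ratio differed by 1.28 to 1.42 (exact permutation p = 0.1, and 0.25 for paired sign flips, each the smallest possible). Without a filter Hand1 and Insm1 could be tested and were not called (edgeR adjusted p = 0.694 and 0.140). The Hand1 to Hand2 ratio was not run, since Hand1 had under 10 reads in each group. Of 123 other genes recomputed 27 changed their call under at least 1 alternative and 0 reversed. Depth limits what can be said of Hand1, Insm1 and Gata3.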
